A study of Mus musculus with 11 samples.

Results

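Microglia that received both a Toll-like receptor 2 (TLR2) agonist and interferon-gamma (IFN-gamma), one after the other, were compared with microglia that received neither. The comparison uses 6 of the 11 RNA sequencing libraries of the series, chosen by their labels alone: 3 Control libraries and 3 libraries of the Pam3CSK4+IFN-gamma group, called the combined group here. The source of all cells was cerebral tissue of 6 to 8 week old C57BL/6 mice, with no transgene or deletion in the labels. Both groups were expanded in culture, over 10 to 14 days, in medium that held M-CSF (10 ng/ml) and TGF-beta1 (5 ng/ml). Combined cells then received 100 ng/ml of Pam3CSK4, a synthetic triacylated lipopeptide, during 24 h, followed by 24 h with 20 ng/ml of IFN-gamma. The labels do not say if the first agent was removed before the second was added, when the Control cells were harvested, or whether replicates were separate cultures or animals, so the p-values below measure only the spread between these libraries. For combined replicates 2 and 3 a treatment label ends the agonist's name in another digit than for replicate 1, while their titles name Pam3CSK4, and all 3 were treated as 1 group. The single-agent groups were Pam3CSK4 alone (100 ng/ml for 24 h, n = 2) and IFN-gamma alone (20 ng/ml for 24 h, n = 3), after the same expansion. They enter the same statistical fit and are used only to place the level of a gene in the combined group. By the labels each had 24 h of treatment, and the combined group 24 h with each agent in turn. A difference from a single-agent group therefore mixes the other agent with time in treatment, and these cannot be told apart.

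Microglia are the resident macrophages of the brain, and in health they hold a distinctive expression programme that depends on TGF-beta and on signals through the M-CSF receptor. TLR2 senses bacterial lipopeptides and signals through the adaptor MyD88 to NF-kappaB, which drives cytokine, chemokine and feedback genes. IFN-gamma signals through the kinases JAK1 and JAK2 to GAS elements of its target genes, and through factors such as IRF1, which bind interferon-stimulated response elements (ISRE). In macrophages, agonists of both kinds given together are the textbook route to the microbicidal state marked by inducible nitric oxide synthase and IL-12.

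The promoters of 5 genes that rose in the combined group are shown because each holds, in a short stretch before the start, the letters of an element that one or both of these pathways is known to use. The sequences are the 220 bases before the RefSeq start on the GRCm38.p6 build, written in the direction of the gene. They lie at chr3:142496714-142496933 for Gbp5 (plus strand), chr5:92348890-92349109 for Cxcl10 (minus strand), chr11:53769794-53770013 for Irf1 (plus strand, the first of 2 listed starts), chr12:104235927-104236146 for Serpina3g (plus strand) and chr5:90785881-90786100 for Cxcl3 (plus strand). Capitals mark every match, on either strand, to the ISRE core GAAANNGAAA, the GAS motif TTCNNNGAA or the NF-kappaB consensus. The form of that consensus used here is GGG, A or G, any base, 3 bases that are C or T, and CC. Stretches that differ from it at 1 base, such as gggaaattcc in Cxcl10, stay in lower case, so sites of a wider consensus are not marked or counted.
Gbp5: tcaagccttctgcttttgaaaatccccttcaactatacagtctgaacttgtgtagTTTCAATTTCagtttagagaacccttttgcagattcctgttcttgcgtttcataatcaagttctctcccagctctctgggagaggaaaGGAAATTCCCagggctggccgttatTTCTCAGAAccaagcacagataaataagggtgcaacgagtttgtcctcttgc
Cxcl10: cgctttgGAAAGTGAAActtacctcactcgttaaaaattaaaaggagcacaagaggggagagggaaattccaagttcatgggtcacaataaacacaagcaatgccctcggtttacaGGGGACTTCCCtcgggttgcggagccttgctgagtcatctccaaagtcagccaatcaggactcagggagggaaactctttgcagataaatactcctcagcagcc
Irf1: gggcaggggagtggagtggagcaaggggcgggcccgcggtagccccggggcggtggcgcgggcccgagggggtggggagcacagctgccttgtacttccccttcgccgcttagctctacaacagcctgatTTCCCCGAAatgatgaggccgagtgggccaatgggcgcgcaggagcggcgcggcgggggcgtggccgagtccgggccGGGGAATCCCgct
Serpina3g: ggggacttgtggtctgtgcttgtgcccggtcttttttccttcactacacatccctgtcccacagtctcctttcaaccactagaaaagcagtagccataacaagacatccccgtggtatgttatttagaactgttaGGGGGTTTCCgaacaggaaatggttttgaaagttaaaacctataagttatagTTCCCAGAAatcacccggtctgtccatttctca
Cxcl3: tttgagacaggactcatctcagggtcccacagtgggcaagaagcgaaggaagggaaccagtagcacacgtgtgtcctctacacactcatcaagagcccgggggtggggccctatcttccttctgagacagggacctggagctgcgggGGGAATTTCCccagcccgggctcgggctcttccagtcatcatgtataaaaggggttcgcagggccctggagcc
In Gbp5 the capitals are, in order, an ISRE core on the minus strand, an NF-kappaB match and a GAS motif, with the last bases of the 3 lying 156, 68 and 44 bases before the start. Cxcl10 holds an ISRE core whose last base is 204 bases before the start, and a pair of overlapping NF-kappaB matches. Irf1 holds a GAS motif followed by an NF-kappaB match, Serpina3g an NF-kappaB match followed by a GAS motif, and Cxcl3 an NF-kappaB match alone. The bases after the RefSeq start were found in a GENCODE M21 transcript of the same gene for each of these except Serpina3g, so where its elements lie to the start is less certain. Over all 32851 promoter windows of 300 bases in the same table, 3.44% held the ISRE core, 8.30% the GAS motif and 5.80% the NF-kappaB consensus. The list counts that follow are per gene, over any of its windows. Counted that way, 4.03%, 8.12% and 8.27% of the 8093 tested genes with an entry held these motifs. Of the listed interferon-induced GTPase genes, 11 had a promoter entry and 10 of these held the ISRE core. Of the 28 homeostatic microglial genes with an entry, 0 held the ISRE core, 3 the GAS motif and 1 the NF-kappaB consensus, which is few genes beside the shares above. The 12 largest rises had 8 entries, of which 2 held the ISRE core, 2 the GAS motif and 3 the NF-kappaB consensus. The 12 largest falls also had 8 entries, of which 0, 2 and 0 held them, so the GAS motif was as frequent there. The listed NF-kappaB subunits and inhibitors had 16 entries, of which 9 held the NF-kappaB consensus and 0 the ISRE core. Matches may overlap one another and are matches of letters only.

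The 3 Control libraries held 15033702, 15820681 and 17903428 counts, and the combined libraries 20176823, 20321017 and 19529707. A fixed set of 14 mural cell and fibroblast markers summed to 31.7 and 44.5 FPKM in the lower Control libraries and to 2320 FPKM in Control replicate 3. In the combined group the same sum was 18.2, 22.2 and, in replicate 3, 69.8 FPKM. A single gene, Cspg4, carried most of the lower sums. It was at 30.12 and 43.13 FPKM in Control and 20.98 and 15.91 FPKM in combined replicates 1 and 2. In replicate 3 Cspg4 was at 57.45 FPKM in Control and 14.01 FPKM in the combined group, so there the other markers made up most of the sum. Outside this comparison, IFN-gamma replicate 1 also carried these transcripts, with a mean log2(FPKM + 1) over the markers of 2.18 against 0.385 and 0.411 in the other 2 libraries of its group. Astrocyte and neuronal markers summed highest in Control replicate 3 as well (32.7 and 7.06 FPKM), but 1 gene carried each sum there, Gja1 at 30.8 FPKM and Tubb3 at 6.88 FPKM, and defining markers such as Gfap, Aqp4 and Snap25 were at most 0.0808 FPKM in every library. Results are therefore given with all libraries and, where it matters, without Control replicate 3 and combined replicate 3. Lymphocyte markers summed to at most 0.265 FPKM in Control and 0.246 in combined libraries, with Cd3d, Cd3e, Cd3g, Cd8a and Nkg7 at 0 in all 11 libraries. Of 12 markers of monocytes, neutrophils and dendritic cells 5 were tested, of which Ly6c2 and Camp were higher, Siglech was lower and S100a8 and Clec9a were not called. Ly6c2 was at 0.0610, 0.0290 and 0.0128 FPKM in Control and 5.65, 6.69 and 6.97 FPKM in combined libraries, Camp at 0.0877, 0 and 0.147 against 2.09, 2.66 and 2.16, and Siglech at 9.58, 9.41 and 3.55 against 0.762, 0.421 and 0.520. The 12 summed to between 8.38 and 18.1 FPKM in Control and between 16.7 and 22.3 FPKM in combined libraries, Ccr2 never reached 1 FPKM, and their part in the results was not tested. The 12 microglial markers summed to 5273, 7052 and 7758 FPKM, from the lowest to the highest Control library, and to 2273, 2296 and 2410 FPKM in combined libraries.

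Of 10938 genes tested with edgeR's quasi-likelihood test, 2556 (23.4%) were higher and 2646 (24.2%) lower in the combined group than in Control at an adjusted p under 0.05, and 1001 (9.15%) in each direction differed at least 2-fold. Without Control replicate 3 and combined replicate 3 the counts were 2746 (25.1%) and 2664 (24.4%), of which 2287 and 2297 were called in the same direction in the full fit. The median log2 change over all genes tested was -0.039. Genes were tested if they had at least 1 FPKM in at least 2 of the 11 libraries. A gene below that in every Control library passed through treated libraries and had little room to be called lower. Shares and medians of lists with many such genes lean to rises for that reason. The FPKM of the 3 Control and 3 combined libraries did not overlap for 58.0% of the genes tested, so a single gene whose groups did not overlap is close to the background here. Fewer cells of a type and less RNA per cell cannot be told apart in these bulk libraries.

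The largest rises reached from near absence to high abundance. Iigp1 (ENSMUSG00000054072, chr18:60376029-60392627 on mm10), an immunity-related GTPase that attacks the vacuoles of intracellular pathogens, was at 0.277, 0.0810 and 0.125 FPKM in the Control libraries and 401, 388 and 435 FPKM in the combined libraries. This is a fitted rise of 2702-fold (log2 change 11.40 ± 0.39 SE, edgeR adjusted p = 7.2e-08). Cxcl9 (ENSMUSG00000029417, chr5:92321347-92328079), a chemokine that attracts activated T cells through CXCR3, was at 0.347, 0.504 and 0.463 FPKM in Control and 861, 864 and 838 FPKM in combined libraries, with log2 change 11.02 ± 0.19. Its neighbour Cxcl10 (ENSMUSG00000034855, chr5:92346638-92348889), a ligand of the same receptor whose promoter is printed above, was at 0.461, 0.464 and 0.703 FPKM and 572, 575 and 507 FPKM, with log2 change 10.09 ± 0.24. Both chemokines were tightly grouped within each condition, and no Control library reached 1 FPKM of either. Ccl5 (ENSMUSG00000035042, chr11:83525778-83530518), a chemokine that attracts T cells and monocytes, went from 2.66, 1.79 and 4.10 FPKM to 3792, 4010.3 and 3504 FPKM and was the most abundant chemokine transcript of the combined cells. Gbp5, a guanylate-binding protein linked to inflammasome activation, was at 0.0932, 0.108 and 0.140 FPKM in Control and 71.9, 70.8 and 62.3 FPKM in combined libraries, and Gbp4, of the same family, at 0.0822, 0.107 and 0.0941 and 62.7, 59.3 and 61.2 FPKM. Il12b, which encodes the subunit shared by IL-12 and IL-23, was at 0.118, 0.0450 and 0.338 FPKM in Control and 227, 177 and 80.5 FPKM in combined libraries. The libraries of both groups were spread widely for Il12b (log2 change 9.97 ± 1.07, edgeR adjusted p = 5.8e-05).

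**Figure D1:**
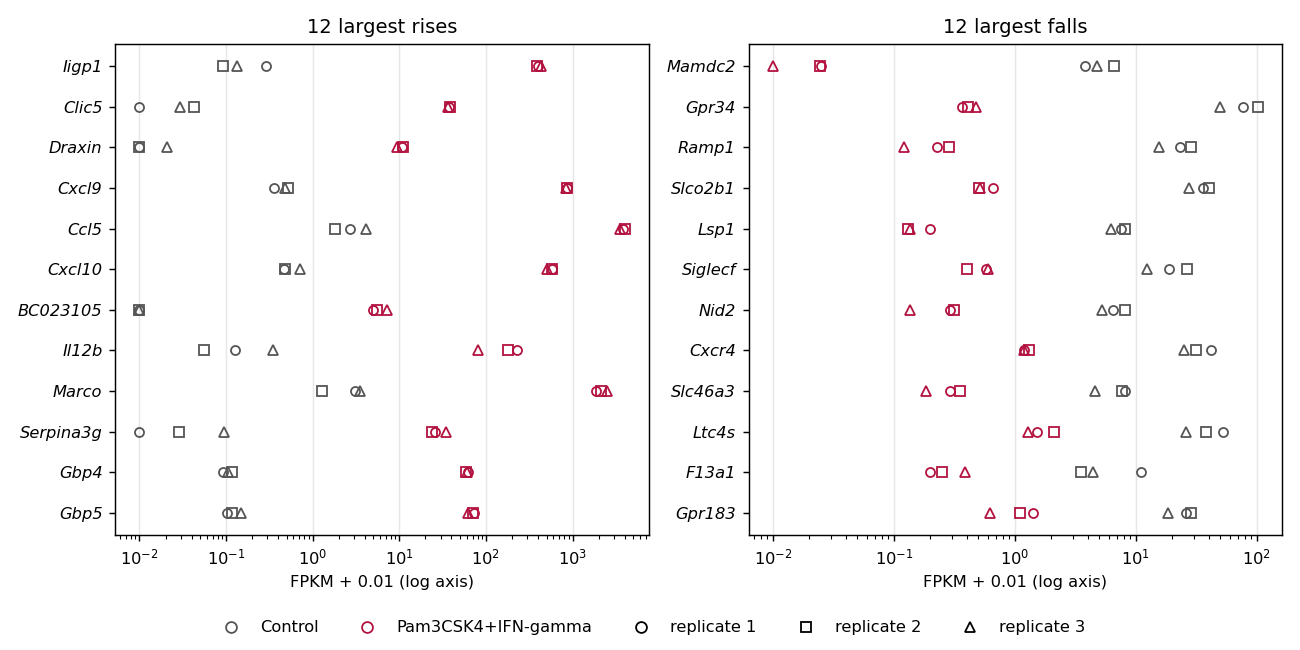
FPKM plus 0.01 on a log axis in each Control (grey) and combined (red) library for the 12 largest rises (left) and 12 largest falls (right), with 1 symbol per replicate. The 3 combined libraries lie apart from the 3 Control libraries for each of these genes, which the naming rule required, and most sit close together within a group.

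Marco (ENSMUSG00000026390, chr1:120474538-120505024), a scavenger receptor for bacteria and particles, was at 3.11, 1.26 and 3.55 FPKM in Control and 1848, 2146 and 2484 FPKM in combined libraries (log2 change 9.78 ± 0.67). Serpina3g, a serine protease inhibitor whose promoter is printed above, was at 0, 0.0190 and 0.0839 FPKM and 25.6, 23.8 and 34.5 FPKM, and Clic5, a chloride intracellular channel protein, at 0, 0.0323 and 0.0190 and 37.6, 38.8 and 36.3 FPKM. Both were near 0 in Control, so the sizes of their rises (9.60 ± 0.45 and 11.07 ± 0.40 on the log2 scale) rest on few Control counts. Draxin, known as an axon guidance factor, had 1 count over the 3 Control libraries and 3263 over the combined libraries, a depth-adjusted ratio of 2650 with a 95% counting interval of 475 to 104717. BC023105 had 0 counts in Control and 434 in the combined group, at least 118-fold higher against a floor of 3 counts over the Control group. All 12 of these genes rose also without Control replicate 3 and combined replicate 3, which the naming rule required. Gbp family members, Tgtp1 and Tgtp2, Serpina3f and Serpina3g, and H2-Q6 and H2-Q7 have near-identical copies, and how the authors assigned shared reads is not given in the sources used here, so the split between such copies is uncertain.

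The largest falls included surface receptors and transporters that resting microglia carry. Gpr34 (ENSMUSG00000040229, chrX:13632089-13640858), a lysophosphatidylserine receptor of microglia, fell from 76.6, 103 and 49.8 FPKM in Control to 0.354, 0.402 and 0.471 FPKM in combined libraries (log2 change -7.47 ± 0.39, edgeR adjusted p = 7.2e-07). Slco2b1, an organic anion transporter, fell from 36, 40.5 and 27.3 FPKM to 0.645, 0.492 and 0.506 FPKM. Ramp1, the accessory protein of the receptor for calcitonin gene-related peptide, fell from 23, 28.8 and 15.4 FPKM to 0.216, 0.275 and 0.111 FPKM. All 3 were well expressed in each Control library and below 1 FPKM in each combined library. Siglecf, a sialic acid-binding lectin, fell from 18.7, 26.6 and 12.4 FPKM to 0.568, 0.394 and 0.587 FPKM. Ltc4s, which makes leukotriene C4, fell from 53, 38.2 and 25.8 FPKM to 1.53, 2.09 and 1.28 FPKM. Mamdc2 had 824 counts over the Control libraries and 2 over the combined libraries, a depth-adjusted ratio of Control to combined of 507 with a 95% counting interval of 140 to 4195. The remaining falls among the 12 largest had log2 changes between -5.55 and -4.46. They were the leukocyte cytoskeletal protein gene Lsp1, the basement membrane gene Nid2, the chemokine receptor gene Cxcr4, the lysosomal transporter gene Slc46a3, the transglutaminase gene F13a1 and the oxysterol receptor gene Gpr183. F13a1 varied most within Control, at 11, 3.51 and 4.41 FPKM, and had an SE of 0.90. 

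Interferon-induced GTPases, which act against intracellular pathogens, formed the list with the largest median change. All 18 listed members passed the filter and 18 of 18 rose, beside 23.4% of all genes tested. Their median log2 change was 6.40 (6.38 with Gbp2b, which had 0 Control counts, placed at its bound) beside -0.039 over all genes tested. Gbp2, the most abundant of them, was at 0.917, 0.737 and 4.22 FPKM in Control and 711, 722 and 660.2 FPKM in combined libraries (log2 change 8.62 ± 0.64). Control replicate 3 was the highest Control library for Gbp2, and without it and combined replicate 3 the fitted log2 change was 9.80. Against IFN-gamma alone 0 of the 18 were higher and 9 were lower in the combined group, where 17.0% and 17.2% of all genes tested were. Iigp1 was at 854, 933 and 751 FPKM after IFN-gamma alone, above the combined group (log2 difference of combined minus IFN-gamma -1.06 ± 0.24, edgeR adjusted p = 0.0087). Against Pam3CSK4 alone 18 of 18 were higher, beside 6.06% of all genes tested. Tgtp1, named for T cells but present in these microglia, showed the widest gap to IFN-gamma alone among the abundant members, at 3.07, 3.27 and 10.5 FPKM in combined and 79.1, 54.9 and 52.7 FPKM in IFN-gamma libraries, while its near-identical copy Tgtp2 was at 91.8, 82.8 and 82.1 and 152, 145 and 135 FPKM.

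Transcripts for antigen presentation to CD8 T cells rose broadly. Of 24 genes of MHC class I and the immunoproteasome, 23 rose and 0 fell, beside 23.4% and 24.2% of all genes tested. Their median log2 change was 2.04. The peptide transporter gene Tap1 went from 4.96, 5.09 and 3.54 FPKM to 47.5, 46.1 and 48.5 FPKM (log2 change 3.46 ± 0.19), and Nlrc5, the class I transactivator, from 1.64, 1.71 and 1.49 to 22.1, 20.5 and 21.1 FPKM (log2 change 3.81 ± 0.13). H2-Q7, a non-classical class I gene, went from 0.666, 1.39 and 0.695 FPKM to 45.4, 39.4 and 33.6 FPKM. The immunoproteasome subunit gene Psmb8 went from a mean of 27.8 ± 6.54 to 108 ± 1.02 FPKM (SD, n = 3). The exception was B2m, the shared light chain, at 4382, 5336 and 3338 FPKM in Control and 6560, 5439.7 and 5523 FPKM in combined libraries; it was already among the most abundant transcripts and its difference did not pass the test (log2 change 0.50 ± 0.20, edgeR adjusted p = 0.065). Against IFN-gamma alone, Tap1 did not pass the test (log2 difference -0.05 ± 0.18) and H2-T23, a ligand of natural killer cell receptors, was lower, at 139, 144 and 135 FPKM in combined and 264, 266 and 301 FPKM in IFN-gamma libraries (edgeR adjusted p = 0.0043).

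Of the 14 MHC class II genes tested 6 rose and 4 fell, beside 23.4% and 24.2% of all genes tested, and the median log2 change was 0.42 (0.26 without Control replicate 3). Ciita (ENSMUSG00000022504, chr16:10488178-10527564), the transactivator on which class II transcription depends, was at 0.0380, 0.0241 and 0.0532 FPKM in Control and 2.60, 2.37 and 2.23 FPKM in combined libraries (log2 change 6.00 ± 0.27), but at 36.4, 50.9 and 43.8 FPKM after IFN-gamma alone. The combined level was 64-fold above Control and far below IFN-gamma alone (log2 difference -4.20 ± 0.20, edgeR adjusted p = 7.4e-07). H2-Eb1, a class II beta chain, followed the same order, at 1.52, 1.44 and 0.896 FPKM in Control, 44.6, 43.1 and 39.7 in combined and 1107, 1309 and 1455 in IFN-gamma libraries. H2-Ab1, the other beta chain, was at 30.7, 33.4 and 25.9 FPKM in Control and 46.6, 47 and 44.5 FPKM in combined libraries, a rise of 0.70 ± 0.15 on the log2 scale (edgeR adjusted p = 0.0037). Cd74, the invariant chain, rose from a mean of 15.8 ± 0.773 to 95.2 ± 2.29 FPKM (SD, n = 3), against 3207 FPKM after IFN-gamma alone. The 4 genes that fell act in peptide loading: H2-DMa and H2-DMb2, chains of the exchange factor, H2-Ob, a chain of its inhibitor, and Ctss, the protease that trims the invariant chain. H2-DMa fell from 84, 88.4 and 54.6 FPKM to 35.1, 33.3 and 36.8 FPKM, and Ctss from 4100.5, 4011 and 2859 to 2126, 2070.3 and 2255 FPKM. Against IFN-gamma alone 0 of the 14 were higher and 12 lower, beside 17.0% and 17.2% of all genes tested, with a median log2 difference of -2.87. Against Pam3CSK4 alone 8 were higher and 0 lower, beside 6.06% and 3.04%.

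**Figure D2:**
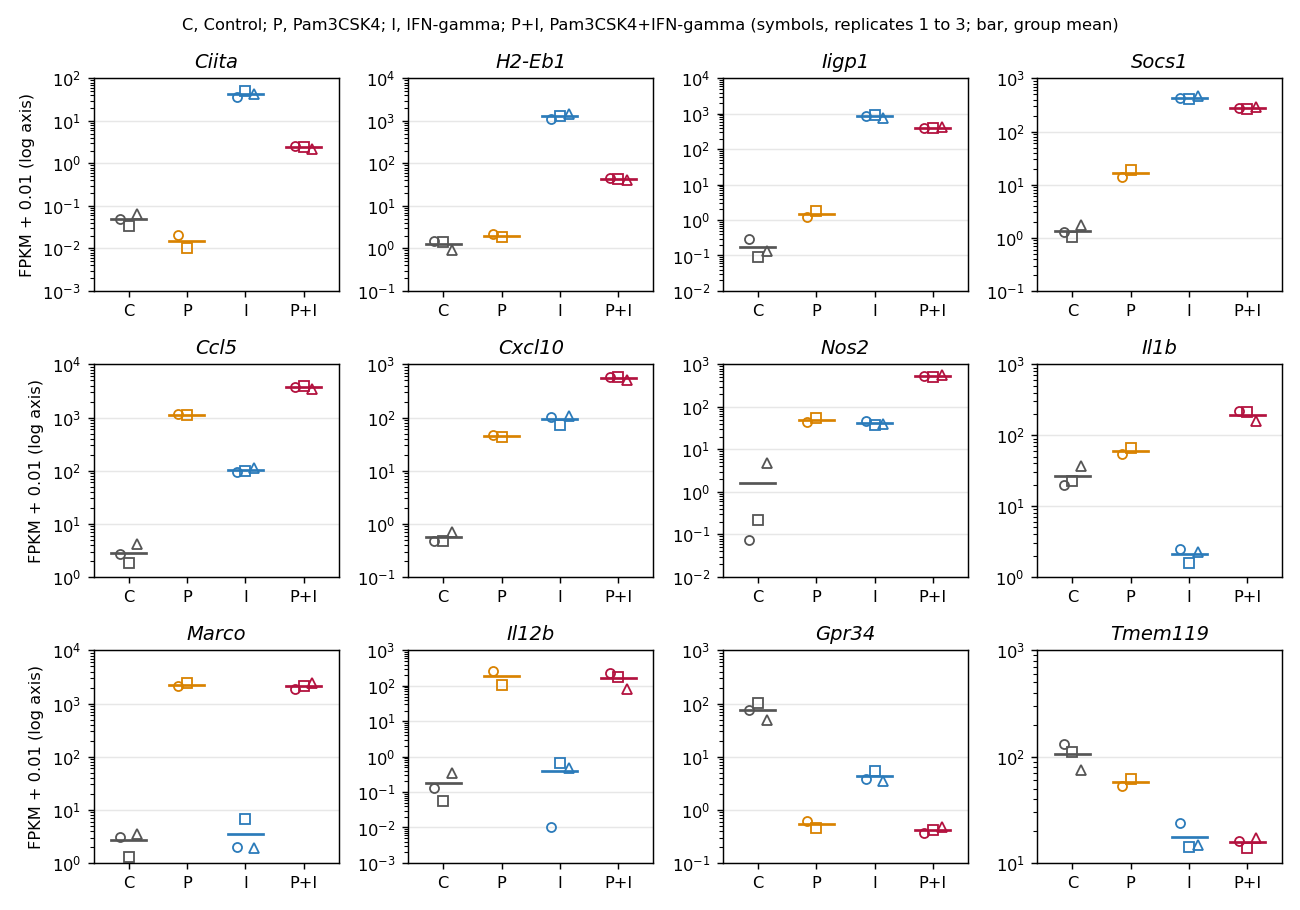
FPKM plus 0.01 on log axes for 12 genes in every library of the 4 groups, with 1 symbol per replicate and a bar at the group mean. Combined libraries lie between Control and IFN-gamma for Ciita and H2-Eb1, above both single-agent groups for Ccl5, Cxcl10, Nos2 and Il1b, and near Pam3CSK4 alone for Marco, Il12b and Gpr34.

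Antiviral interferon-stimulated genes rose in 35 of 35 cases (34 with the replicate block, where Ifi27l2a had an edgeR adjusted p of 0.069). Over all genes tested 23.4% rose. The median log2 change of the list was 2.50. Isg15, a ubiquitin-like modifier, went from 14.8, 11.5 and 8.87 FPKM to 259, 255 and 286 FPKM. Ifit1, which binds viral RNA caps, went from 2.73, 3.09 and 1.54 to 80.4, 78.4 and 91.1 FPKM, and Zbp1, a sensor of nucleic acids that can trigger necroptosis, from 2.26, 1.86 and 1.43 to 63, 62.9 and 64.2 FPKM. These 3 rose by 4.59 ± 0.23, 5.16 ± 0.28 and 5.18 ± 0.21 on the log2 scale. Of the 35, 20 were higher in the combined group than after IFN-gamma alone and 2 were lower, Ifi27l2a and Samhd1. Over all genes tested 17.0% were higher and 17.2% lower in that comparison. Rsad2, which encodes the antiviral enzyme viperin, was at 43.7, 40.9 and 48.3 FPKM in combined, 5.30, 5.98 and 5.83 FPKM in IFN-gamma and 24.7 and 23.4 FPKM in Pam3CSK4 libraries. Its difference from IFN-gamma alone passed the test (2.95 ± 0.27, edgeR adjusted p = 4.6e-05) and that from Pam3CSK4 alone did not (0.99 ± 0.29, edgeR adjusted p = 0.067). Ifnb1, the type I interferon gene itself, failed the filter: it was at 0 in all 3 Control libraries and at 0.595, 0.853 and 1.02 FPKM in combined libraries.

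The interferon pathway itself showed a lower receptor chain beside higher transducers and feedback inhibitors. Ifngr1, the ligand-binding chain of the IFN-gamma receptor, fell from 52.7, 53.9 and 41 FPKM to 12.5, 13.4 and 12.2 FPKM (log2 change -1.87 ± 0.16), and Ifngr2, the signalling chain, was at means of 59.6 and 61.3 FPKM with a difference that did not pass the test. Jak2 rose from 13.4, 13.3 and 14.7 FPKM to 83.1, 76.5 and 69.3 FPKM, and Irf1, whose promoter is printed above, from 7.24, 6.58 and 6.18 to 82.5, 94.8 and 87.4 FPKM. The lowest combined library exceeded the highest Control library for both, and the groups did not overlap for 58.0% of all genes tested. Socs1, which blocks JAK kinases downstream of the IFN-gamma receptor, rose from 1.25, 1.04 and 1.69 FPKM to 276, 270.2 and 293 FPKM (log2 change 7.81 ± 0.19, edgeR adjusted p = 6.3e-09). Socs3, the related inhibitor of IL-6 family signalling, rose from 2.23, 1.15 and 10.8 FPKM to 257, 263 and 259 FPKM. Control replicate 3 held most of the Socs3 in Control, and without it and combined replicate 3 the fitted change was 7.32. Irf1 and Socs1 were lower than after IFN-gamma alone (-0.74 ± 0.14 and -0.65 ± 0.13) and higher than after Pam3CSK4 alone (4.22 ± 0.19 and 4.19 ± 0.18), with edgeR adjusted p of 0.0032, 0.005, 2.3e-06 and 1.9e-06. Of 28 tested genes of the receptor, JAK-STAT, IRF and SOCS list 12 rose and 3 fell. Over all genes tested the shares were 23.4% and 24.2%. The genes that fell beside Ifngr1 were Socs5 and Socs6. Without Control replicate 3 the list counted 5 lower.

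Among 26 listed chemokines 19 were tested, of which 15 rose and 2 fell, beside 23.4% and 24.2% of all genes tested. The median log2 change of those tested was 4.40. Cxcl9, Cxcl10, Cxcl2 and Cxcl3 were below 1 FPKM in every Control library. They passed the filter through treated libraries and had little room to be called lower. Beside the CXCR3 ligands and Ccl5, the neutrophil-attracting chemokine gene Cxcl3 went from 0.0295, 0.0280 and 0.0495 FPKM to 8.92, 9.88 and 13.8 FPKM, and Cxcl2 from 0.400, 0.135 and 0.238 to 13.8, 14.9 and 17.1 FPKM. Each of these started near 0 in all 3 Control libraries. Ccl2, the main attractant of CCR2-bearing monocytes, went from 0.941, 1.56 and 5.76 FPKM to 45.8, 49.6 and 97.3 FPKM. The 2 that fell were Ccl6, from 114, 141 and 81.3 FPKM to 37.7, 31.3 and 32.1 FPKM, and Cxcl14, from 115, 82.5 and 76.2 to 21.2, 22.9 and 31.8 FPKM. Cxcl1 was at 0, 0 and 2.89 FPKM in Control and 5.90, 7.65 and 10.5 FPKM in combined libraries, and passed the test without Control replicate 3 and combined replicate 3 (edgeR adjusted p = 5.2e-05) but not with them (edgeR adjusted p = 0.064; 0.03 with the replicate block). The chemokines differed in how the combined level stood to the single agents. Ccl5 was above both, at 1172 and 1105 FPKM after Pam3CSK4 alone and 96, 96.6 and 113 FPKM after IFN-gamma alone (log2 differences 1.84 ± 0.23 and 5.20 ± 0.23). Cxcl10 was also above both (3.73 ± 0.21 and 2.55 ± 0.17), with edgeR adjusted p of 7.5e-06 and 6.5e-06. Cxcl9 was below IFN-gamma alone (-0.78 ± 0.12), and Ccl3, a CCR1 ligand, was at 2209, 2217 and 2167 FPKM in combined against 5833 and 5591 FPKM in Pam3CSK4 libraries (-1.27 ± 0.23, edgeR adjusted p = 0.0084).

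Of the 27 cytokine genes tested 14 rose and 7 fell, beside 23.4% and 24.2% of all genes tested. Tnf rose from 9.46, 6.29 and 4.58 FPKM to 311, 313 and 330 FPKM (log2 change 5.63 ± 0.30, edgeR adjusted p = 8.6e-07). Il1b rose from 19.6, 22.7 and 36.7 FPKM to 217, 212 and 160.2 FPKM, and Il1a from 6.44, 5.99 and 7.33 to 96.3, 101 and 82.2 FPKM, alongside Il1rn, which encodes the antagonist of their receptor, from 1.31, 1.58 and 2.69 to 32.6, 31.8 and 30.1 FPKM. For Il1b the single agents lay on opposite sides, at 54.2 and 65.7 FPKM after Pam3CSK4 and 2.43, 1.55 and 2.25 FPKM after IFN-gamma, and the combined level exceeded both (log2 differences 1.82 ± 0.26 and 6.56 ± 0.29, edgeR adjusted p = 0.0025 and 5.3e-07). Il10, an anti-inflammatory cytokine gene, had 3 counts over the Control and 147 over the combined libraries, a depth-adjusted ratio of 39.8 with a 95% counting interval of 13.4 to 195. At 1.44, 1.65 and 2.54 FPKM it was below the 15.1 and 17.4 FPKM of Pam3CSK4 alone (-3.01 ± 0.46, edgeR adjusted p = 0.007), a group with fewer hours of treatment. Il6 was at 0.488, 0.464 and 7.22 FPKM in Control and 18.8, 19 and 13.8 FPKM in combined libraries. The groups did not overlap, as for 58.0% of all genes tested. Control replicate 3 stood apart, and the difference did not pass the test (log2 change 2.83 ± 1.34, edgeR adjusted p = 0.11). Without it and combined replicate 3 it passed (5.35, edgeR adjusted p = 0.014), as it did without IFN-gamma replicate 1 (edgeR adjusted p = 0.029). Partners of Il12b failed the filter: Il12a was at 0.555, 0.598 and 0.744 FPKM in combined libraries and Il23a at 0.109, 0.0362 and 0.0754. Csf1, the ligand of the M-CSF receptor, fell from 30.7, 42.3 and 54.7 FPKM to 1.68, 1.18 and 9.49 FPKM. Tgfb1 fell from 85.3, 85 and 67.4 FPKM to 42.8, 43.6 and 49.3 FPKM, and Pdgfb, a growth factor for mural cells, from a mean of 41.5 ± 7.00 to 15 ± 0.874 FPKM (SD, n = 3). Lif, a gp130 cytokine gene, was at 0.0150, 0 and 19.9 FPKM in Control and 1.62, 1.74 and 4.87 FPKM in combined libraries, so its direction depends on Control replicate 3, the library with mural and fibroblast transcripts. Without both doubtful libraries the list counted 18 higher and 7 lower.

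Of 20 listed genes of nitric oxide and superoxide metabolism 11 rose, beside 23.4% of all genes tested. Nos2 (ENSMUSG00000020826, chr11:78920787-78960254), inducible nitric oxide synthase, was at 0.0635, 0.211 and 4.68 FPKM in Control and 528, 504 and 557 FPKM in combined libraries (log2 change 8.50 ± 1.28, edgeR adjusted p = 0.00051). Control replicate 3 stood far above the other Control libraries, and all of them lay far below the combined libraries; without it and combined replicate 3 the fitted log2 change was 11.89. After either agent alone Nos2 stood at a similar level, 44.1 and 54.6 FPKM for Pam3CSK4 and 46.4, 37.9 and 38.8 FPKM for IFN-gamma. The combined group exceeded IFN-gamma alone by 3.68 ± 1.02 (edgeR adjusted p = 0.021) and Pam3CSK4 alone by 3.53 ± 1.20 (edgeR adjusted p = 0.11, which does not pass). Both errors use the spread of Nos2 over all groups in the fit, Control replicate 3 included. Slc7a2, an arginine importer, rose from 1.10, 0.906 and 1.21 FPKM to 14.8, 13.9 and 12.2 FPKM. Arg1, which competes for the same arginine, rose as well, from 0.676, 0.257 and 1.70 FPKM to 9.84, 18.4 and 20.1 FPKM (log2 change 4.31 ± 1.09, edgeR adjusted p = 0.0093). Cybb, the catalytic subunit of the phagocyte oxidase, rose from 83.6, 81.1 and 65.9 FPKM to 668, 623 and 573 FPKM, and its cytosolic partner Ncf1 from 91.9, 49.9 and 62.1 to 207, 170.2 and 193 FPKM, while Cyba, the membrane partner, was at means of 475 and 475 FPKM and did not pass the test. Sod2, the mitochondrial superoxide dismutase, rose from 17.4, 17.3 and 21.4 FPKM to 344, 370.1 and 339 FPKM. The glutathione peroxidase gene Gpx1 was the 1 gene of the list called lower (edgeR adjusted p = 0.049). That call was lost with the replicate block (edgeR adjusted p = 0.064) and without both doubtful libraries (edgeR adjusted p = 0.12). In the fit without those libraries 13 genes of the list were higher and 1 other gene was lower.

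Acod1, the enzyme that makes itaconate from a citric acid cycle intermediate, rose from 6.97, 6.00 and 6.32 FPKM to 967, 1014 and 1015 FPKM (log2 change 7.37 ± 0.14). Slc13a3, a dicarboxylate transporter, rose from 0.104, 0.0496 and 0.227 FPKM to 70.8, 61.7 and 62.8 FPKM, a level that was 227 and 115 FPKM after Pam3CSK4 alone and 0.110, 0.161 and 0.0693 FPKM after IFN-gamma alone. Acod1 exceeded both single agents (1.49 ± 0.13 over Pam3CSK4 and 1.81 ± 0.11 over IFN-gamma, edgeR adjusted p = 8.7e-05 and 3.8e-06). Among targets of the stress factor NRF2, the cystine importer gene Slc7a11 rose from 6.32, 6.83 and 8.94 FPKM to 55.8, 52 and 44.6 FPKM and the peroxiredoxin gene Prdx1 from 199, 201 and 194 to 1125, 1149 and 1067 FPKM. The list counted 10 of 15 higher and 1 lower, beside 23.4% and 24.2% of all genes tested. The 1 lower was Gclc, a subunit of the enzyme that limits glutathione synthesis. It fell from 44.9, 46.4 and 35.3 FPKM to 19.8, 18.1 and 18.4 FPKM. Ido1, the tryptophan-degrading enzyme that IFN-gamma induces in many other cells, did not exceed 0.196 FPKM in any library and was not tested, and Kynu, which acts further down the pathway, rose from 0.894, 0.859 and 1.65 FPKM to 8.58, 9.41 and 6.97 FPKM.

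TLR2 itself was not called in the combined group. Tlr2 was at 239, 217 and 186 FPKM in Control and 183, 179 and 145 FPKM in combined libraries (log2 change -0.26 ± 0.16, edgeR adjusted p = 0.21), against 352 and 299 FPKM after Pam3CSK4 alone. Without Control replicate 3 it was called slightly lower (-0.39, edgeR adjusted p = 0.0264). Its partner for triacylated lipopeptides, Tlr1, rose from 4.98, 4.98 and 3.53 FPKM to 20.5, 21 and 22.2 FPKM, and the coreceptor gene Cd14 from 353, 325 and 578 to 1144, 1086 and 810 FPKM. Irak3, an inhibitory kinase of the same pathway, rose from 2.19, 2.50 and 2.1 FPKM to 20, 15.2 and 16.6 FPKM (log2 change 3.02 ± 0.16). Tlr13, the sensor of bacterial ribosomal RNA, fell from 92.1, 89 and 65.1 FPKM to 26.9, 26 and 26.8 FPKM. The list as a whole counted 10 higher and 3 lower of 24, beside 23.4% and 24.2% of all genes tested, with a median log2 change of 0.31. Without Control replicate 3 it counted 10 and 5, with a median of 0.12.

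Subunits and inhibitors of NF-kappaB rose in 18 of 21 cases and fell in none, beside 23.4% and 24.2% of all genes tested. The changes were modest, with a median log2 change of 0.93. The inhibitors led: Nfkbiz, an atypical IkappaB protein, rose from 5.77, 7.29 and 11.2 FPKM to 55.9, 37.9 and 56.2 FPKM, and Nfkbia, the main inhibitor, from 62.8, 44 and 57.3 to 242, 246 and 253 FPKM. The transactivating subunit gene Rela was at means of 40.2 and 41.7 FPKM and did not pass the test. Against Pam3CSK4 alone 1 of the 21 was higher (Cyld) and 1 lower (Rel), beside 6.06% and 3.04% of all genes tested. Against IFN-gamma alone 14 were higher and 0 lower, beside 17.0% and 17.2%.

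Receptors for chemoattractants moved in both directions, 7 of 17 tested rising and 8 falling, beside 23.4% and 24.2% of all genes tested. The formyl peptide receptor genes Fpr1 and Fpr2 rose, from 11.9, 5.49 and 5.82 to 262, 268 and 267 FPKM and from 1.91, 1.35 and 0.803 to 180.3, 200.3 and 191 FPKM. Fpr2 exceeded both single agents (1.85 ± 0.31 over Pam3CSK4 and 3.22 ± 0.28 over IFN-gamma, edgeR adjusted p = 0.0053 and 3.6e-05). Ccr7, the receptor that guides cells to lymph nodes, had 1 count over the Control libraries and 638 over the combined libraries, a depth-adjusted ratio of 518 with a 95% counting interval of 92.7 to 20500. Cxcr4, the CXCL12 receptor, fell from 41.9, 31.7 and 25.1 FPKM to 1.17, 1.31 and 1.19 FPKM (log2 change -4.67 ± 0.28), and S1pr1, a sphingosine-1-phosphate receptor, from 92.3, 94.8 and 68 to 8.04, 8.35 and 7.31 FPKM. Cx3cr1, the fractalkine receptor, fell from 301, 317 and 212 FPKM to 161, 157 and 166 FPKM (log2 change -0.70 ± 0.17), less than it did after IFN-gamma alone, where it was at 77.1, 82.2 and 81.4 FPKM (log2 difference 1.00 ± 0.17, edgeR adjusted p = 0.002).

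Of 19 tested molecules that costimulate or restrain T cells 7 were higher and 5 lower, beside 23.4% and 24.2% of all genes tested. Cd40, which receives T-cell help, rose from 0.601, 0.423 and 0.687 FPKM to 41.1, 40.5 and 34.3 FPKM (log2 change 6.18 ± 0.20) and exceeded both single agents (1.89 ± 0.19 and 2.27 ± 0.17 over Pam3CSK4 and IFN-gamma, edgeR adjusted p = 0.00029 and 1.2e-05). Cd274, which encodes PD-L1, rose from 30.5, 30.3 and 22.4 FPKM to 370.3, 354 and 325 FPKM, also above both (1.82 ± 0.19 and 0.70 ± 0.16). Cd86 was at 20.2, 22.7 and 16.7 FPKM in Control and 24.1, 24.2 and 20.9 FPKM in combined libraries and did not pass the test, while it was at 75.7, 83.5 and 79.1 FPKM after IFN-gamma alone. The checkpoint genes Vsir and Havcr2, which encode VISTA and TIM-3, fell, from 129, 126 and 94.9 to 22.3, 21 and 22.1 FPKM and from 51.4, 58.6 and 40 to 9.54, 8.51 and 7.42 FPKM. No Control library overlapped the combined libraries for Cd40, Cd274, Vsir or Havcr2, as for 58.0% of all genes tested. Without both doubtful libraries the list counted 10 higher and 4 lower, with Cd80 no longer called (edgeR adjusted p = 0.056).

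Complement and Fc receptor genes showed large rises in a few members. Of 21 tested 10 were higher and 4 lower, beside 23.4% and 24.2% of all genes tested. C3, the central complement component, rose from 8.35, 9.24 and 7.55 FPKM to 573, 537 and 578 FPKM (log2 change 6.15 ± 0.20) and Cfb, factor B of the alternative pathway, from 0.208, 0.184 and 0.0465 to 82.9, 73.5 and 79.9 FPKM (log2 change 9.16 ± 0.48). Both exceeded each single agent, C3 by 1.05 ± 0.18 and 2.40 ± 0.16 and Cfb by 2.00 ± 0.38 and 1.33 ± 0.32 over Pam3CSK4 and IFN-gamma. The classical initiators C1qa, C1qb and C1qc were among the most abundant transcripts in both groups and did not pass the test, C1qb for example at means of 2203 and 2791 FPKM; without both doubtful libraries C1qb was called higher (0.23, edgeR adjusted p = 0.026). Among Fc receptors Fcgr4, which is activating, rose from 20, 11.7 and 14.3 FPKM to 158, 167 and 203 FPKM, and Fcgr3, also activating, fell from 174, 162 and 135 to 64, 62.3 and 66.3 FPKM. Serping1, the C1 inhibitor, was at 0, 0 and 0.730 FPKM in Control and 2.47, 2.33 and 3.74 FPKM in combined libraries (log2 change 3.62 ± 0.93, edgeR adjusted p = 0.01), and lost its call when only the 6 libraries compared were fitted (edgeR adjusted p = 0.0815).

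**Figure D3:**
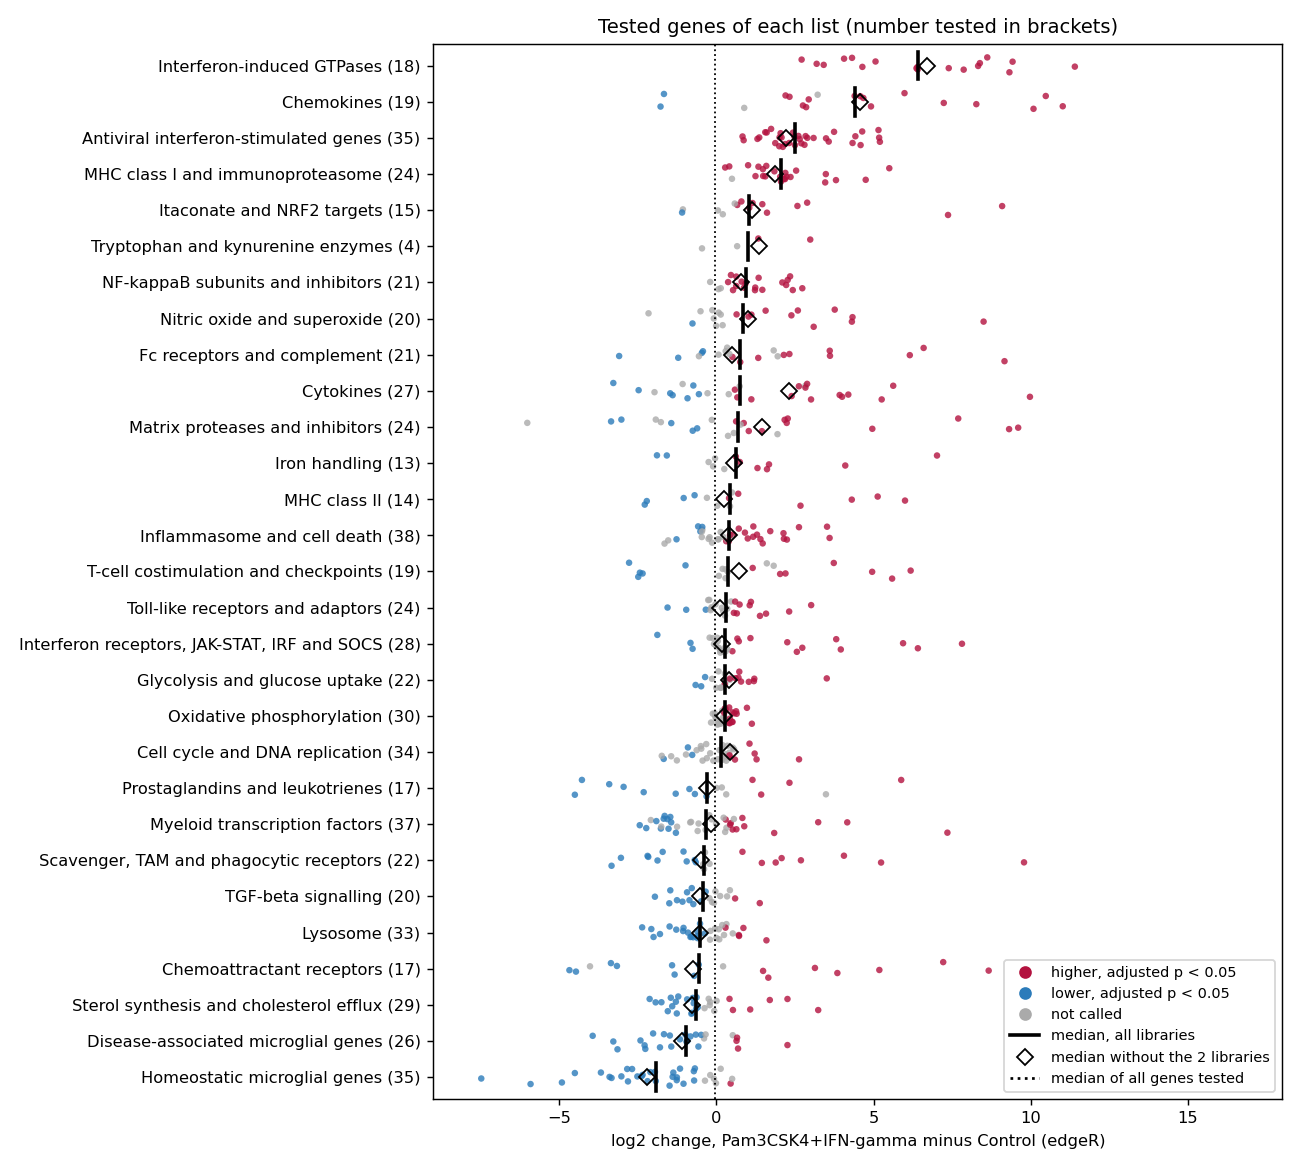
Log2 change of every tested gene (points) in 29 lists, ordered by the median (bar), with the median without Control replicate 3 and combined replicate 3 (diamond) and the median of all genes tested (dotted line). The medians run from 6.40 for interferon-induced GTPases to -1.92 for homeostatic microglial genes, and the diamonds move most for cytokines.

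The homeostatic programme of microglia fell. Of 36 listed genes 35 were tested, 28 were lower and 1, the nucleotide receptor gene P2ry6, was higher. Over all genes tested 24.2% were lower and 23.4% higher. The median log2 change of the list was -1.92 (-2.22 without both doubtful libraries). P2ry6 was not called without those libraries, nor with the replicate block (edgeR adjusted p = 0.064). P2ry12, the nucleotide receptor that directs microglial processes, fell from 12.6, 37.3 and 16.8 FPKM to 2.05, 1.85 and 2.14 FPKM (log2 change -3.39 ± 0.39). Tmem119, a microglia-specific membrane protein, fell from 131, 111 and 74.3 FPKM to 16, 13.9 and 17.2 FPKM, and Fcrls, a microglial scavenger receptor-like gene, from 1102, 1099 and 883 to 179.6, 153 and 180.2 FPKM. P2ry12 varied widely among the Control libraries, but each exceeded every combined library. Sall1, the transcription factor that holds microglial identity, fell less, from 86.8, 93.1 and 60 FPKM to 48.3, 44.9 and 45.8 FPKM (log2 change -0.71 ± 0.18), and Csf1r, the M-CSF receptor, from 549.6, 513 and 377 to 191, 180.1 and 200.2 FPKM (log2 change -1.26 ± 0.17). Control replicate 3 was the lowest Control library for Gpr34, Tmem119 and Csf1r; without it and combined replicate 3 these falls were -7.84, -2.97 and -1.47. Of the 12 microglial markers, 11 were lower (9 without both doubtful libraries and 10 with the replicate block). The other, Aif1, which encodes the actin-binding protein IBA1, was higher. It was at 46.3, 41.3 and 30 FPKM in Control and 127, 120.3 and 143 FPKM in combined libraries. Against IFN-gamma alone 22 of the 35 homeostatic genes were lower and 3 higher, beside 17.2% and 17.0% of all genes tested. Against Pam3CSK4 alone 8 were lower and 4 higher, beside 3.04% and 6.06% of all genes. The 8 include Tmem119, at 53.1 and 61.7 FPKM after Pam3CSK4 alone (-1.76 ± 0.28, edgeR adjusted p = 0.0044); the 4 include Mertk and Entpd1.

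Genes that microglia raise in neurodegeneration and demyelination, often called disease-associated, also fell. Of 26, 19 were lower and 4 higher, beside 24.2% and 23.4% of all genes tested. Trem2, the lipid receptor on which much of that state depends, fell from 257, 286 and 178 FPKM to 59.9, 53.5 and 47.1 FPKM (log2 change -2.09 ± 0.21). Apoe, a lipid carrier, fell from 2587, 1652 and 1518 FPKM to 283, 512 and 559 FPKM, Spp1, osteopontin, from 1061, 1032 and 1449 to 93, 88.7 and 193 FPKM, and Lpl, lipoprotein lipase, from 137, 150 and 81.5 to 19.5, 19.5 and 27.1 FPKM. None of the 4 passed the test against Pam3CSK4 alone, with log2 differences of 0.30 ± 0.23, 0.56 ± 0.32, 0.22 ± 0.31 and 0.48 ± 0.29. Each was lower than after IFN-gamma alone, by -2.08 ± 0.21, -1.21 ± 0.29, -3.09 ± 0.30 and -3.24 ± 0.27. The largest exception was Ch25h, the enzyme that makes 25-hydroxycholesterol, which rose from 142, 150.2 and 103 FPKM to 536, 559 and 706 FPKM.

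Lysosomal genes leaned the same way, with 17 of 33 lower and 5 higher, beside 24.2% and 23.4% of all genes tested. Their median log2 change was -0.52. Ctsd, cathepsin D and one of the most abundant transcripts of these cells, fell from 17387, 19117 and 11953 FPKM to 4216, 3737 and 3605 FPKM. Ctsl fell from 1208, 1319.8 and 1152 FPKM to 333, 320 and 350 FPKM and the proton pump subunit gene Atp6v0d2 from 11.9, 17.9 and 10.6 to 2.17, 2.46 and 2.86 FPKM. Ctsc, the protease that activates granule serine proteases, rose from 70.5, 71.4 and 59.3 FPKM to 185, 179.8 and 209 FPKM.

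Of 22 phagocytic receptor genes 8 were higher and 10 lower, beside 23.4% and 24.2% of all genes tested. Beside Marco, the C-type lectin receptor gene Clec4e, which senses mycobacterial glycolipid, rose from 0.791, 0.972 and 1.52 FPKM to 41.1, 40.9 and 33.1 FPKM, and Cd36, a fatty acid and lipoprotein receptor, from 18.2, 12.2 and 10.6 to 50.1, 47.7 and 66 FPKM. Clec4n, which encodes dectin-2, rose from 17.6, 10.9 and 14.5 FPKM to 88.6, 83.3 and 88.6 FPKM and exceeded both single agents (1.96 ± 0.23 and 1.74 ± 0.20, edgeR adjusted p = 0.00072 and 0.00017). Gas6, the bridging ligand by which Axl and Mertk recognise dying cells, fell from 126, 135 and 88.3 FPKM to 11.5, 10.3 and 11.2 FPKM (log2 change -3.33 ± 0.20), and Axl itself from 114, 121 and 96.2 to 67.3, 64 and 68.4 FPKM. Scarb1, the receptor for high-density lipoprotein, fell from 16.9, 13.7 and 11.9 FPKM to 2.91, 2.65 and 3.42 FPKM. Timd4, a phosphatidylserine receptor gene, was called but rests on 1 Control and 26 combined counts, a ratio of 21.1 with a 95% counting interval of 3.47 to 866.

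Transcription factors of the myeloid lineage were near the background, 11 of 37 higher and 11 lower beside 23.4% and 24.2% of all genes tested. Batf, an AP-1 factor, rose from 3.90, 2.91 and 2.51 FPKM to 56.3, 57.1 and 44 FPKM, Cebpb from 89.9, 72.3 and 104 to 304, 295 and 289 FPKM and Nr1h3, the liver X receptor alpha gene, from 0.745, 0.366 and 0.550 to 4.61, 4.86 and 5.26 FPKM. Egr2, a zinc finger factor, fell from 16.5, 20.6 and 13.1 FPKM to 3.08, 2.55 and 3.19 FPKM. Cebpb was above both single agents (0.95 ± 0.23 over Pam3CSK4 and 1.07 ± 0.21 over IFN-gamma, edgeR adjusted p = 0.035 and 0.0033). Spib, an ETS factor gene, had 2 Control and 437 combined counts, a ratio of 177 with a 95% counting interval of 48.8 to 1470. Its 3.26, 2.1 and 1.26 FPKM in combined libraries compared with 16.7 and 12.9 FPKM after Pam3CSK4 alone (-2.64 ± 0.48, edgeR adjusted p = 0.0084).

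In the TGF-beta pathway, on which the homeostatic programme depends and whose ligand was in the medium, 11 of 20 genes were lower and 2 higher. Over all genes tested 24.2% were lower and 23.4% higher. The receptor genes Tgfbr1 and Tgfbr2 fell, from 82.4, 92.6 and 33.5 to 18.1, 16.8 and 16.9 FPKM and from 147, 159 and 117 to 62.4, 61.7 and 66 FPKM. Smad7, the feedback inhibitor that TGF-beta itself induces, fell from 11.8, 12 and 10.5 FPKM to 3.93, 3.64 and 3.92 FPKM, and Smad3, a signal transducer, from 12.2, 12 and 11.6 to 6.62, 6.10 and 6.95 FPKM. Acvrl1, a type I receptor of the same family, rose from 4.80, 5.51 and 5.41 FPKM to 11.1, 10.8 and 16.6 FPKM. Ltbp3, which binds latent TGF-beta, fell from 9.92, 11 and 29.5 FPKM to 5.80, 5.26 and 5.61 FPKM with Control replicate 3 the highest; without it and combined replicate 3 the fall was -0.88 in place of -1.46.

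Of 17 transcripts of arachidonic acid metabolism 4 were higher and 9 lower, beside 23.4% and 24.2% of all genes tested. Ptges, which makes prostaglandin E2, rose from 1.25, 1.60 and 6.93 FPKM to 171, 171 and 176 FPKM (log2 change 5.88 ± 0.67), and Pla2g4a, the phospholipase that releases arachidonic acid, from 6.89, 7.26 and 17.6 to 26.1, 25 and 27 FPKM. Ptgs2, the inducible cyclooxygenase, was at 0.241, 0.135 and 144 FPKM in Control and 511, 465 and 415 FPKM in combined libraries. The groups did not overlap, as for 58.0% of all genes tested. The single high value of Control replicate 3 left the difference outside the threshold (log2 change 3.49 ± 1.81, edgeR adjusted p = 0.14). Without that library and combined replicate 3 the log2 change was 11.39 (edgeR adjusted p = 1.3e-06). Ptgs1, the constitutive cyclooxygenase, fell from 67.2, 61.7 and 55.1 FPKM to 6.72, 6.52 and 9.32 FPKM. Hpgd, which inactivates prostaglandins, fell from 311, 269 and 148 FPKM to 9.37, 11.4 and 15.3 FPKM (log2 change -4.27 ± 0.40), and Alox5, at the head of leukotriene synthesis, from 11.4, 10.6 and 8.72 to 0.850, 0.983 and 0.906 FPKM.

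Genes of central metabolism changed by small amounts. Of 22 genes of glycolysis and glucose uptake 10 rose and 3 fell, beside 23.4% and 24.2% of all genes tested. Their median log2 change was 0.28 (0.42 without Control replicate 3). Without both doubtful libraries 11 were higher and 1 lower. The exception in size was Hk3, a myeloid hexokinase, which rose from 26.2, 22.5 and 18.7 FPKM to 238, 236 and 255 FPKM (log2 change 3.51 ± 0.17) and was at 225, 254 and 256 FPKM after IFN-gamma alone. Hk2, the inducible hexokinase, rose from 25.5, 25.1 and 20.9 FPKM to 53.6, 51 and 50.1 FPKM, while the lactate dehydrogenase gene Ldha was at means of 167 and 172 FPKM and did not pass the test with all libraries, but did without both doubtful ones (0.32, edgeR adjusted p = 0.016). Nuclear genes of oxidative phosphorylation rose in 15 of 30 cases and 0 fell, beside 23.4% and 24.2% of all genes tested, but the changes were small: their median log2 change was 0.27 and the largest, that of the cytochrome oxidase subunit gene Cox5a, was 1.13 ± 0.10. Without both doubtful libraries 12 of these 30 were called higher.

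Of 29 genes of sterol synthesis and cholesterol efflux 6 rose and 17 fell, beside 23.4% and 24.2% of all genes tested. Among synthesis enzymes Idi1 fell from 4.45, 5.41 and 5.03 FPKM to 1.03, 1.23 and 1.41 FPKM and Hmgcs1 from 35.1, 39.9 and 38.2 to 10.8, 10.9 and 10 FPKM. For both, all combined libraries lay below all Control libraries, and the groups did not overlap for 58.0% of all genes tested. The exporter genes Abca1 and Abcg1 rose, from 17.1, 17.4 and 18.2 to 40.3, 33.7 and 30.5 FPKM and from 5.04, 4.02 and 3.30 to 13.2, 12.1 and 12.7 FPKM. Abca1 was at 4.80, 5.58 and 4.44 FPKM after IFN-gamma alone, below the combined level (2.81 ± 0.14, edgeR adjusted p = 1.2e-06).

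Iron-handling genes rose in 7 of 13 cases and fell in 2, beside 23.4% and 24.2% of all genes tested. Lcn2, lipocalin 2, which captures bacterial siderophores, rose from 0.232, 0.364 and 0.998 FPKM to 62.1, 62.6 and 66.6 FPKM (log2 change 7.02 ± 0.62). Fth1, the ferritin heavy chain, rose from 27313, 22922 and 15851 FPKM to 52774, 57899 and 44887 FPKM, and Hmox1, which releases iron from heme, from 914, 695 and 575 to 1936, 2105 and 2288 FPKM. Ferritin heavy chain was among the most abundant transcripts in every library. The only known cellular iron exporter, ferroportin, encoded by Slc40a1, fell from 13.8, 11.6 and 7.17 FPKM to 4.04, 3.06 and 3.31 FPKM, as did Hfe from 12, 11.2 and 10 to 2.23, 3.12 and 3.12 FPKM. Cp, ceruloplasmin, was at 0.0410, 0.0605 and 3.04 FPKM in Control and 16.4, 14.9 and 15.8 FPKM in combined libraries with an edgeR adjusted p of 0.038, and between 0.0573 and 0.08 in the 8 alternative fits in which it lost its call.

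Among inflammasome and cell death genes 19 of 38 were higher and 4 lower, beside 23.4% and 24.2% of all genes tested. Casp4, the sensor of cytosolic lipopolysaccharide (caspase-11 in the mouse), rose from 3.13, 3.63 and 3.42 FPKM to 20.9, 19.5 and 18.8 FPKM, Nlrp3 from 20.2, 20.4 and 14.1 to 38.8, 39 and 39.5 FPKM and Gsdmd, the pore-forming substrate of these caspases, from 37.7, 34 and 32 to 65.2, 63.1 and 67 FPKM. Fas, the death receptor, rose from 1.07, 1.47 and 2.36 FPKM to 17.3, 16.7 and 18.3 FPKM (log2 change 3.52 ± 0.25), beside the survival genes Cflar, from 2.45, 3.72 and 3.13 to 12.5, 14.4 and 11.9 FPKM, and Birc3, from 4.44, 3.75 and 4.21 to 19.2, 18.3 and 17.7 FPKM. The groups did not overlap for any of these genes, as for 58.0% of all genes tested. Mlkl, the effector of necroptosis, was at 0.136, 0.0184 and 1.71 FPKM in Control and 6.09, 6.36 and 7.94 FPKM in combined libraries (log2 change 3.60 ± 0.95, edgeR adjusted p = 0.011; 0.0508 when only these 6 libraries were fitted).

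Matrix proteases and their inhibitors rose in 11 of 24 tested cases and fell in 5 (3 with the replicate block). Over all genes tested 23.4% were higher and 24.2% lower. Mmp9 rose from 0.169, 0.0160 and 0.198 FPKM to 2.11, 3.91 and 5.23 FPKM, Mmp14, a membrane-bound activator of other proteases, from 13.7, 11.3 and 38.3 to 51.5, 55.1 and 50.4 FPKM, and Serpina3f, beside its copy Serpina3g, from 0, 0 and 0.105 to 21.9, 21 and 28.1 FPKM. Mmp25 had 2 Control and 552 combined counts, a ratio of 224 with a 95% counting interval of 61.8 to 1856. Plau, urokinase, fell from 180.2, 187 and 136 FPKM to 15.3, 15.7 and 15.9 FPKM. The inhibitor gene Timp3 was at 0, 0.00700 and 142 FPKM in Control and 0.0110, 0.00545 and 1.90 FPKM in combined libraries and Timp1 at 0.0961, 0.0457 and 306 and 2.61, 2.84 and 72.9 FPKM; both follow the libraries with mural and fibroblast transcripts and were not called. Without those 2 libraries the list's median log2 change was 1.45 in place of 0.70.

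Of 34 cell cycle genes 7 were higher and 3 lower, beside 23.4% and 24.2% of all genes tested, and the count depended on 1 library: without Control replicate 3 it was 17 higher and 3 lower, with a median log2 change of 0.67 in place of 0.14. Without the 3 libraries that carried mural and fibroblast transcripts 19 were higher. Ccne1, cyclin E1, rose from 0.938, 0.673 and 3.40 FPKM to 9.23, 9.17 and 9.79 FPKM and Cdkn1a, the inhibitor p21, from 26.1, 25.5 and 50.1 to 74.1, 64.9 and 55.7 FPKM. The proliferation marker Mki67 was at 3.48, 3.77 and 8.95 FPKM in Control and 6.42, 4.57 and 5.97 FPKM in combined libraries and was not called. The call of the mitotic cyclin gene Ccnb2 as lower was lost without combined replicate 1 or 2 (edgeR adjusted p = 0.0558 and 0.0504). Without both doubtful libraries 12 genes were higher and 4 lower, and Ccnd2, cyclin D2, changed from -1.43, not called, to 2.19 (edgeR adjusted p = 0.0018).

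**Figure D4:**
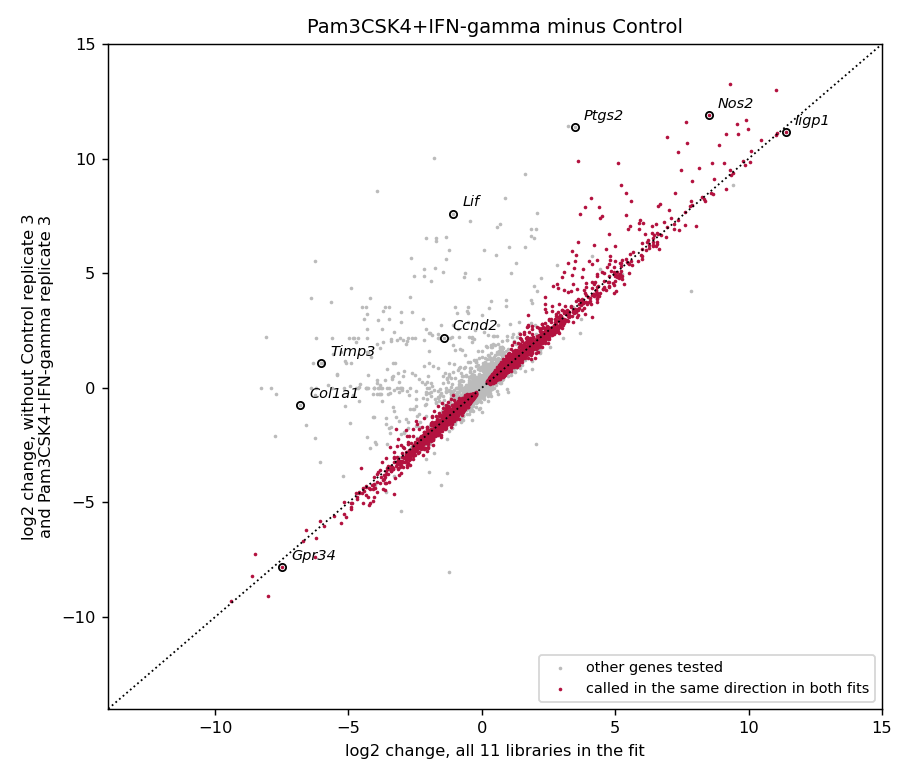
Log2 change of each tested gene with all libraries in the fit (horizontal axis) against that without Control replicate 3 and combined replicate 3 (vertical axis), with the line of equality dotted and genes called in the same direction in both fits in red. Most genes lie on the line, while Ptgs2, Lif and Ccnd2 and the mural or fibroblast genes Timp3 and Col1a1 lie above it.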

How the data were processed

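RNA from cultured adult mouse microglia was profiled in 11 libraries, of which 3 Control and 3 combined libraries are compared here. The deposited table gives whole-number counts per Ensembl gene and FPKM values that the authors derived for the same genes, per the file headers. Within a gene the deposited FPKM were proportional to its share of the library's counts, with deviations of at most 2.82e-06 (relative) over the 6617 genes above 200 counts in every library. The mm10 build, Cuffdiff, Cufflinks 2.1.1 and TopHat2 2.1.0 are named, without roles, per the submitters' processing notes. Not given in the sources used here are the annotation, the strand setting and how shared reads were treated, so antisense and overlapping genes cannot be told apart. Gene coordinates are those of the table, on mm10.

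The test was edgeR's (4.0.16, in R 4.3.3) quasi-likelihood test with TMM scaling on the counts, the 11 libraries forming 4 group means in a single fit so that they share 1 estimate of the spread. Genes with at least 1 FPKM in at least 2 of the 11 libraries were tested, 10938 of 34745. These held 98.19% of the counts of Control replicate 3, 97.97% of combined replicate 2 and at least 99.34% of each other library; in combined replicate 2, 1.549% of the counts were of mt-Co1, which is listed at 0 in the other 10 libraries and was not tested. P-values were two-sided and adjusted by Benjamini-Hochberg over all genes tested, with a threshold of 0.05. Errors of log2 changes are standard errors and errors of FPKM are SDs over 3 libraries; counting intervals are exact 95% intervals, and like the floor of 3 counts they cover counting error only. The scripts were tested on simulated data.

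The lists, panel, markers, naming rule and alternatives were chosen with earlier results of these data known. Genes named are the 12 largest rises and 12 largest falls (called also without Control replicate 3 and combined replicate 3, at least 5 FPKM in one group, no overlap), up to 4 members with the largest changes of each of the 29 lists, and a panel; other list members named were chosen after their values were seen, to show how a list divides. Of 793 list and panel entries 786 were matched by symbol and 7 by ID. The replicate numbers are shared by the groups, but no label ties a number to an animal, batch or day. The main fit holds group only, and the replicate block is an alternative. Over genes, deviations from the group means correlated at 0.468, 0.44 and 0.715 for Control and combined libraries of numbers 1, 2 and 3. Libraries 1 and 2 correlated at 0.542 and 0.561 when crossed. Deviations cancel within a group and replicate 3 stands apart in both groups, so these correlations cannot show whether the numbers pair the libraries. Alternatives were RLE scaling, DESeq2 1.42.0, other FPKM filters, the replicate block, leaving out each library, and leaving out the libraries with mural and fibroblast transcripts; leaving out each single-agent library was added after the data were seen. Promoter windows are those of RefSeq, matched by symbol. Some list members are not reported here.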

Additional observations from a re-analysis of the deposited data

How the results depend on the processing

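Over 19 alternatives the 4 counts of the combined group against Control stayed within 1.5 times the reported ones, except that 593 genes were lower at least 2-fold when 5 FPKM were required. Leaving out 1 library at a time gave 2163 to 3036 genes higher and 2156 to 3018 lower. With the replicate block 2428 were higher and 2467 lower, and the block changed no call against Control of the 137 genes named by the rule; of other genes in the text, Gpx1, P2ry6 and Ifi27l2a lost their call and Cxcl1 gained one. Of the 137 genes 135 were called, and 130 kept their call and direction in every alternative that tested them; Serping1, Mlkl, Ccnb2, Mcm5 and Cp lost theirs in at least 1, and Il6 and Tlr2, not called, passed without Control replicate 3, Il6 also without IFN-gamma replicate 1. None of the 137 reversed. Of the other genes in the text, Ccnd2, Lif, Cyba, Timp1 and Timp3, not called with all libraries, changed sign without Control replicate 3 and combined replicate 3, and Ccnd2 and Lif were then called higher.

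The counts against Pam3CSK4 alone (663 higher, 332 lower), a group of 2 libraries, moved most. Genes higher numbered 1200 without the 3 libraries carrying mural and fibroblast transcripts and between 302 (without Pam3CSK4 replicate 2) and 1185 (without Control replicate 3) with 1 library left out. Genes lower numbered 600 with DESeq2, 193 without a filter, 196 with the replicate block, 644 without Control replicate 3 and combined replicate 3, 922 without the 3 libraries, and between 103 (without either Pam3CSK4 library) and 820 (without Control replicate 3) with 1 left out. The cause was not tested. Where 1 Pam3CSK4 library is left out, the remaining one is assumed to vary like the other groups. Depth limits genes with few counts in one group, whose ratios span more than an order of magnitude.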

Other observations

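Several further genes, chosen after their values were seen, also changed; P2ry12, P2ry13 and Itgb5 belong to the lists above, and the others to none. Saa3, an acute-phase apolipoprotein gene of macrophages, was at 7.14, 7.38 and 66.6 FPKM in Control and 10322, 11497 and 12827 FPKM in combined libraries (log2 change 8.91 ± 0.93, edgeR adjusted p = 4.9e-05). Control replicate 3 held the highest of the Control values, and without it and combined replicate 3 the log2 change was 10.60 (edgeR adjusted p = 7.1e-08). It stood at 11113 and 13824 FPKM after Pam3CSK4 alone and 26.7, 34.4 and 27.1 FPKM after IFN-gamma alone. Clec4a1, a C-type lectin receptor gene, was at 0.811, 0.203 and 0.789 FPKM in Control and 88.4, 109 and 132 FPKM in combined libraries, and Ms4a6d, of a family of membrane-spanning proteins, at 34.2, 29.3 and 31.3 and 487, 464 and 472 FPKM. Zc3h12a, which encodes the cytokine mRNA nuclease regnase-1, was at 13.6, 11.8 and 15.3 FPKM in Control and 77.4, 75.4 and 79.8 FPKM in combined libraries.

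Among receptors for adenosine and nucleotides, Adora2a, an adenosine receptor, rose from 0.105, 0.175 and 0.132 FPKM to 17.9, 18.3 and 11.8 FPKM (log2 change 6.93 ± 0.48) while the ADP receptor genes P2ry12 and P2ry13 fell, P2ry13 from 86.1, 96.5 and 56.5 FPKM to 10.7, 11 and 10.3 FPKM (log2 change -2.83 ± 0.22). Among potassium channels Kcna3, a voltage-gated channel of activated microglia, rose from 1.26, 1.46 and 1.67 FPKM to 15.4, 11.3 and 12.5 FPKM, and Kcnj2, the inward rectifier of resting microglia, fell from 45.7, 57.2 and 32.1 to 11.8, 10.8 and 11.4 FPKM. Among integrins Itgal, the alpha chain of LFA-1, rose from 30.9, 25.3 and 22.7 FPKM to 231, 201 and 179 FPKM, while Itgb5, which pairs with the alpha V chain, fell from 623, 623 and 415 to 123, 115 and 108 FPKM. The 3 Control and 3 combined libraries did not overlap for Adora2a, P2ry12, P2ry13, Kcna3, Kcnj2, Itgal or Itgb5, as for 58.0% of all genes tested.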
